A study of Ginkgo biloba with 15 samples.

Results

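MicroRNAs (miRNAs) of Ginkgo biloba embryos were compared between September 2015 and February 2016, in 3 small-RNA libraries of each month. The 6 libraries were chosen by the collection month in their labels, out of 15 samples in the series. The deposited table lists counts under 361 miRNA names, 342 of them known from other plants and 19 predicted by the authors. Names with the same counts in every library were taken once, which left 252 distinct rows, and 132 of these reached 10 counts in at least 3 of 9 libraries and were tested. The 9 libraries include 3 from November 2015. These entered the count filter, the scaling factors and the model, including its estimate of the spread, while the comparison was of February with September. Ginkgo biloba is a gymnosperm tree, and the embryos came from healthy trees under natural conditions, with no treatment in any group. No label says whether the libraries of a month came from separate trees or seeds, so the p-values describe how far these libraries scatter, and that scatter may be technical.

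Plant miRNAs are short RNAs cut from hairpin precursors, and they guide an Argonaute protein to messenger RNAs of matching sequence, which are cleaved or kept from translation. Many of the families conserved among seed plants act on transcription factors that set the pace of growth and the change from one developmental phase to the next. In flowering plants miR319 acts on TCP factors, miR159 on MYB factors, miR156 and miR529 on SPL factors, miR166 on class III homeodomain-zipper factors and miR396 on growth-regulating factors. A name carries the prefix of the species in which the sequence was catalogued, such as ppt for the moss Physcomitrella and pta for loblolly pine, so a prefix does not mean that the RNA came from that species. In RNA from whole embryos, fewer cells that make a miRNA and less of it per cell cannot be told apart.

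The main finding concerned miR319. The summed counts of its family fell from September to February, both without and with the library number in the model, and no other family of 47 passed the threshold in either fit. Of its names ppt-miR319a had the most counts in September and the greatest part in the difference. miR529 and the predicted miRNA novel_15 had higher values in every February library than in any September library, and miR11534 had lower ones. These 3 did not pass the test as families, and their values are given below.

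Totals over the distinct rows were 473896, 219681 and 708800 counts in September libraries 1, 2 and 3, and 497893, 374470 and 148038 counts in February. The November libraries held 1265265, 89394 and 955611 counts. All levels below are in CPM (counts scaled to a common library total) with edgeR's TMM scaling factors, and libraries are given in the order 1, 2 and 3. A total of 3 counts, the limit that a count of 0 allows, corresponded to 4.92 to 13.1 CPM on this scale in the 6 libraries compared, for counting error only.

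Library 3 differed from its partners in each of the 3 months. Across the 132 rows, the correlation of log2 CPM was 0.943 between September 1 and 2 and 0.971 between February 1 and 2, whereas library 3 correlated with the others of its month at 0.643 to 0.733. September 3 and February 3 correlated at 0.83. Library 3 was the highest of its month in both September and February for 55 rows and the lowest in both for 21, and for 32 rows it was at least 4-fold above the mean of libraries 1 and 2 in both months. One such row was bdi-miR159a-3p, with 143, 128 and 40707 CPM in September and 36.2, 73.6 and 22492 CPM in February. The row osa-miR166m had 1038, 417 and 20123 CPM in September and 814, 839 and 8697 CPM in February. For names of this kind the gap between library 3 and its partners was larger than the gap between months. September and February libraries of the same number deviated together from their month means (correlations of 0.411 to 0.711 across rows). Those of other numbers ran from -0.806 to 0.768, so a pairing of libraries 1 and 2 by number is not shown. Each result is therefore given from a model of month alone and, where it matters, from one with the library number as a block.

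**Figure D1:**
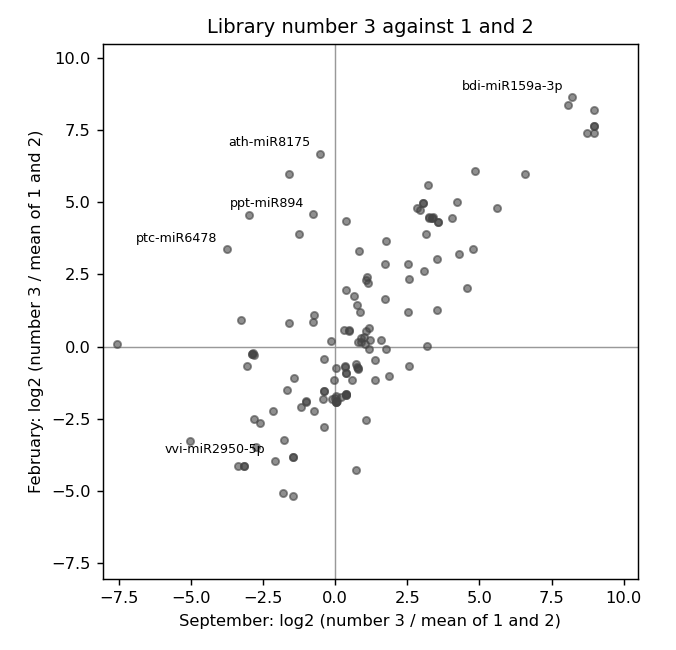
Each point is 1 of the 132 rows tested. Both axes give log2 of library 3 over the mean of libraries 1 and 2 (CPM plus 1), for September (x axis) and February (y axis). Points spread along the diagonal, so that names high or low in September 3 tended to be high or low in February 3 too.

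With month alone in the model, edgeR's quasi-likelihood test with Benjamini-Hochberg adjustment called 0 of 132 rows (0%) at an adjusted p under 0.05. At an unadjusted p under 0.05 there were 7 rows, and DESeq2 called 5. With the library number as a block, edgeR called 5 rows (3.79%), 1 higher and 4 lower in February, and 29 had an unadjusted p under 0.05. Among the 5 were gma-miR319c and gma-miR319q, which are near-identical and not separate observations. With near-identical rows merged, the blocked fit called only novel_15. Of the 132 rows 66 had a fitted value above 0 and 66 below, and the median log2 fold change was 0.02. The values of the 3 September and the 3 February libraries did not overlap for 14 rows (10.6%), 4 higher and 10 lower in February. Among families edgeR called 1 of 47 (2.13%) without the block, and 1 (2.13%) with it. The months did not overlap for 7 families (14.9%), 3 higher and 4 lower in February. For 3 libraries against 3, full separation has an exact two-sided permutation p of 0.1. The shares of 10.6% and 14.9% are near that rate, so lack of overlap alone is weak evidence of a change.

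**Figure D2:**
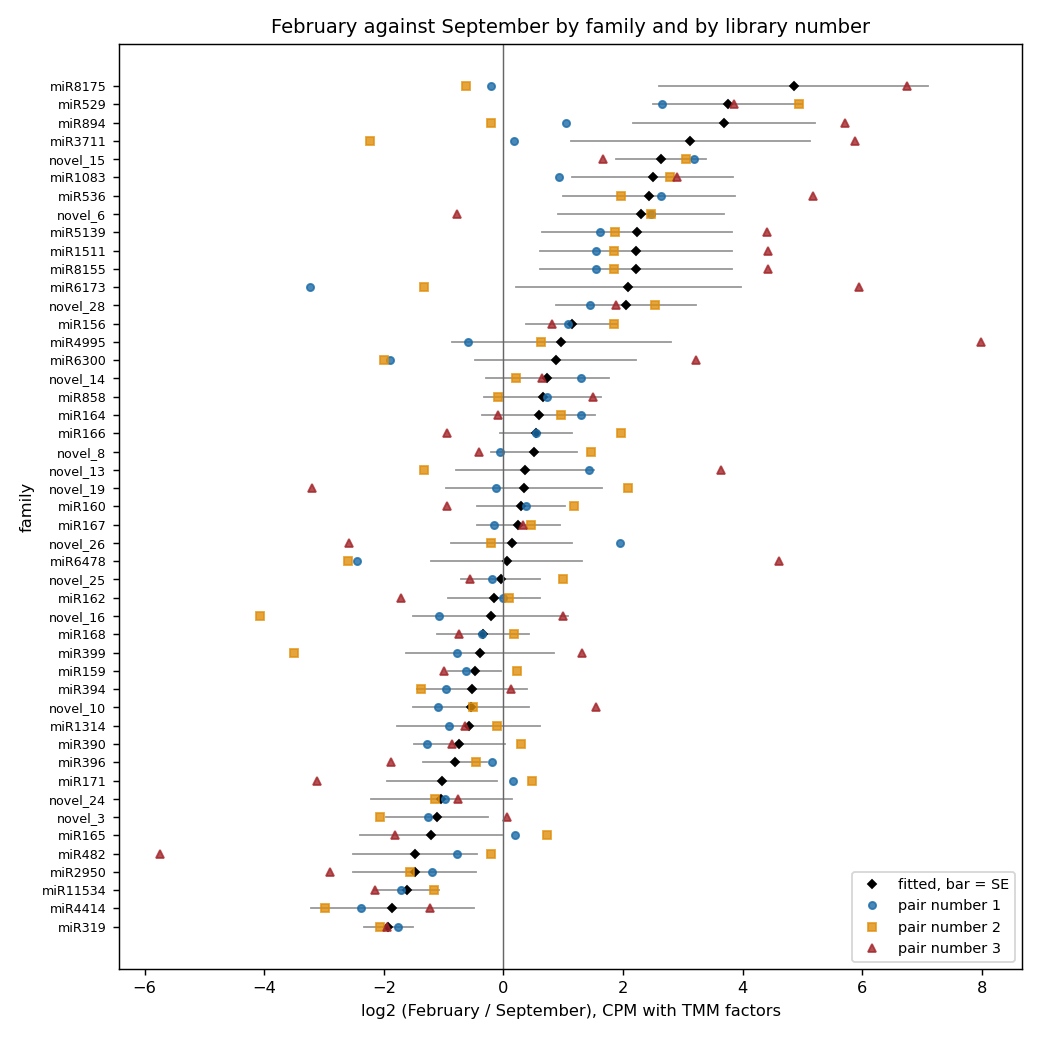
Small points give log2 of February over September for each library number and the 47 families (CPM with TMM factors, 1 CPM added), and the vertical line marks no difference. miR319 lay at the left in all 3 pairs, while families such as miR6478 had pairs on both sides of 0.

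The miR319 family, regulators of TCP factors that control leaf shape and cell division in flowering plants, stood at 106948, 118230 and 158436 CPM in September. In February it stood at 31545, 28373 and 41217 CPM. Every February library was below every September library, and the means were 127871 ± 27064 and 33712 ± 6690 CPM (SD, n = 3 each). Its log2 fold change from edgeR was -1.92, with an SE of 0.41 and an adjusted p of 0.048 for month alone. The block left it at -1.92 with an SE of 0.28 (edgeR adjusted p = 0.011). As plain shares of all counts, miR319 held 8.05%, 15.6% and 13.6% in September and 2.62%, 2.57% and 6.38% in February. The November libraries averaged 117347 ± 36262 CPM (SD, n = 3).

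The call for miR319 was close to the threshold. Without the block it was kept in 1 of 9 fits that left out 1 library (November 3, adjusted p = 0.043) and the other 8 gave adjusted p-values of up to 0.36. With the block it was kept in 2 of 9 (without November 2 or February 3), with adjusted p-values of up to 0.34 in the others. The fold change stayed between -2.09 and -1.30 in all of these fits.

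Of the 14 distinct rows of miR319, 8 were tested, 2 with a fitted value above 0 and 6 below. The most abundant was ppt-miR319a, at 63379, 62220 and 60650 CPM in September against 10484, 9000 and 4399 CPM in February. On the TMM scale the 3 September libraries lay within a narrow band, and all were above the February libraries. The September factors were 0.752, 1.32 and 0.86, so the narrowness of the band depends on this scaling. In November its values were 47686, 77820 and 12516 CPM. The block brought its log2 fold change from -2.96 (SE 0.70, edgeR adjusted p = 0.30) to -3.13 (SE 0.61, edgeR adjusted p = 0.029). The name mtr-miR319a-3p, catalogued in barrel medic, had 19362, 25853 and 27698 CPM in September and 6688, 6736 and 10050 CPM in February. Its months did not overlap. The log2 fold change was -1.64 for month alone (edgeR adjusted p = 0.48) and -1.67 with the block (edgeR adjusted p = 0.073). The row ath-miR319a behaved alike, at 17814, 23057 and 18657 CPM against 6560, 6427 and 7406 CPM. It was not called without or with the block (edgeR adjusted p = 0.073 with the block).

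The near-identical rows gma-miR319c and gma-miR319q, catalogued in soybean, followed the library number. They stood at 1301, 1793 and 18149 CPM in September and 340, 291 and 6297 CPM in February. Each pair of the same number was lower in February, but February 3 was above September 1 and 2. edgeR gave -1.62 on the log2 scale for month alone (SE 1.69, adjusted p = 0.91), and -2.04 with the block (SE 0.49, adjusted p = 0.034). Without September 3 the unblocked value turned to 0.58. The pine name pta-miR319 had no overlap, at 1725, 1969 and 4080 CPM against 425, 291 and 1663 CPM (log2 fold change -1.71). It was not called without or with the block (edgeR adjusted p = 0.055 with the block).

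The 2 other tested rows of the family had fitted values above 0. The Arabidopsis name ath-miR319c stood at 1015, 1362 and 10824 CPM in September and 5433, 4401 and 5032 CPM in February. Libraries 1 and 2 were higher in February and library 3 was lower, and the log2 fold change of 0.17 did not pass the test (edgeR adjusted p = 0.33 with the block). The apple name mdm-miR319d stood at 1032, 166 and 57.4 CPM in September and 1270, 930 and 61.1 CPM in February. It was higher in all 3 pairs with overlapping months, and its log2 fold change of 0.85 did not pass the test (edgeR adjusted p = 0.91).

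**Figure D3:**
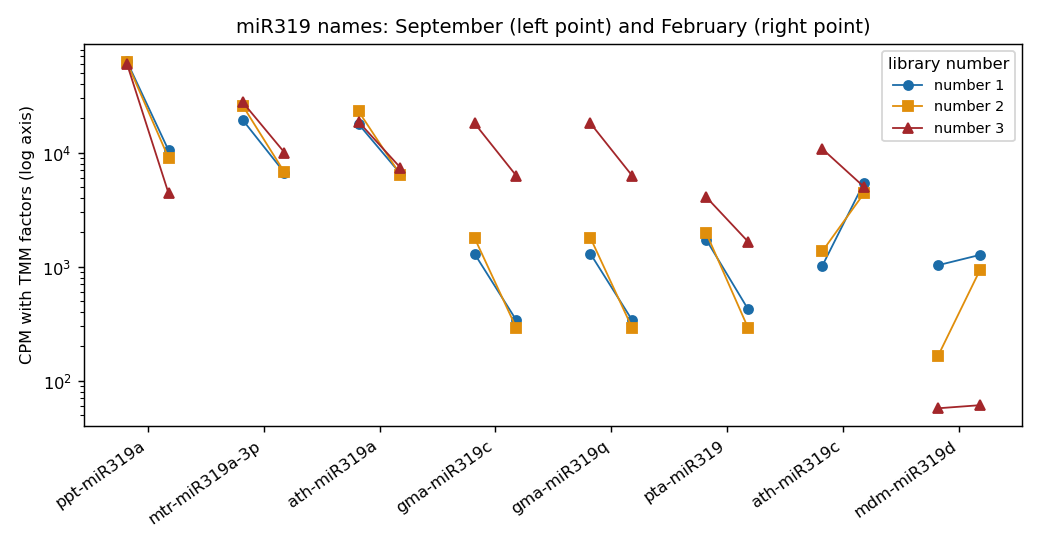
CPM with TMM factors (log axis) of the miR319 names tested, with September at the left and February at the right of each pair of points, joined by library number. The lines of ppt-miR319a led from between 60650 and 63379 CPM to between 4399 and 10484 CPM, while those of ath-miR319c led upwards in libraries 1 and 2.

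The shares of names within the miR319 family, which no scaling factor touches, also had no overlap between months for some names. The name ppt-miR319a held 59.3%, 52.6% and 38.3% of the family's counts in September and 33.2%, 31.7% and 10.7% in February. The row ath-miR319c held 0.949%, 1.15% and 6.83% in September and 17.2%, 15.5% and 12.2% in February. Neither range overlapped between months, and the means were 50.1% ± 10.7 and 25.2% ± 12.6 for the first name and 2.98% ± 3.34 and 15.0% ± 2.55 for the second (SD, n = 3 each). With 3 libraries against 3, an exact two-sided permutation test cannot go below p = 0.1, and these shares are given as a description.

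Shares within families were examined for 75 rows that held at least 1% of their family in a month, and 10 did not overlap between months, 2 higher and 8 lower in February. In miR2950, a family catalogued in grapevine and Norway spruce, pab-miR2950a held 54.3%, 61.3% and 63.1% in September and 67.0%, 70.8% and 78.3% in February. Its partner vvi-miR2950-5p held the rest, with 45.7%, 38.7% and 36.9% in September and 33.0%, 29.2% and 21.7% in February. In miR396 the name ath-miR396b-5p held 35.2%, 39.5% and 40.5% in September and 28.9%, 28.5% and 32.0% in February. A further 4 of the 8 lower rows were near-identical names of miR166. Another was vvi-miR396b, near-identical to ath-miR396b-5p, and the 2 miR2950 shares mirror each other, so the 10 are not separate observations. Full separation of 3 libraries against 3 has an exact two-sided permutation p of 0.1, and 10 of 75 rows is near that rate. The half-width of the 95% Wilson interval of the shares named was at most 4.88 percentage points. It covers counting error only and takes each listed count as a separate read.

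**Figure D4:**
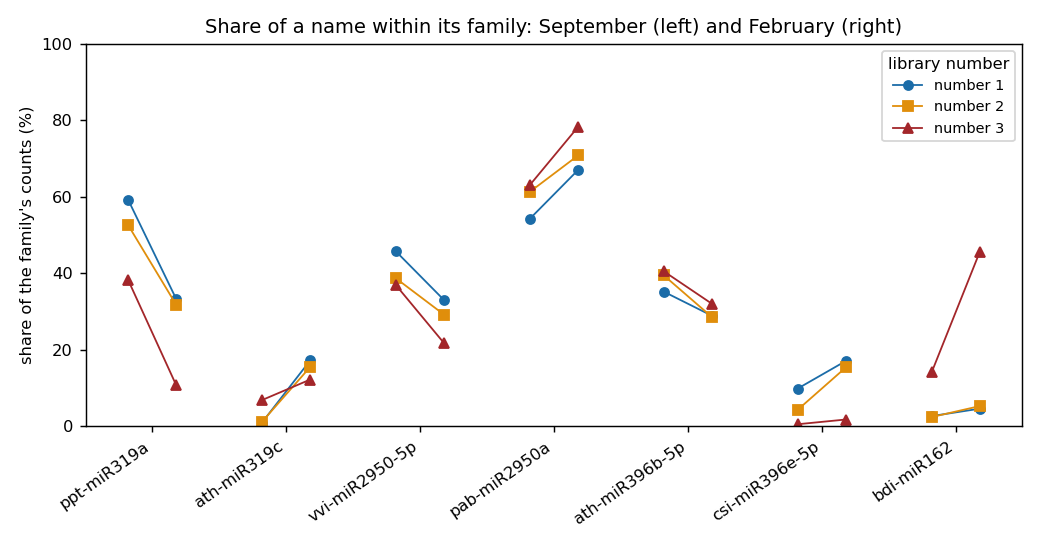
Share of a name in its family's counts (%), with September at the left and February at the right of each pair of points, joined by library number. ppt-miR319a was lower and ath-miR319c higher in February for all 3 numbers.

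The SPL regulators, which hold back the change from juvenile to adult growth in flowering plants, had higher values in February that did not pass the test. The list held 4 families, of which 2 were tested and 0 were called. The miR529 family stood at 86.9, 31.0 and 49.2 CPM in September and 548, 986 and 724 CPM in February. Every February library was above every September library, with a fitted log2 difference of 3.75 (SE 1.25, edgeR adjusted p = 0.16 without and 0.13 with the block). Most of these counts were listed under ppt-miR529e, at 86.9, 31.0 and 21.3 CPM against 541, 983 and 358 CPM (log2 fold change 3.75, adjusted p = 0.067 with the block). DESeq2 called this name with month alone, and edgeR did not.

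The miR156 family stood at 920, 728 and 2091 CPM in September and 1951, 2614 and 3687 CPM in February. It was higher in all 3 pairs of the same number, but the months overlapped. Its log2 fold change of 1.14 (SE 0.76) had an edgeR adjusted p of 0.50 without and 0.16 with the block. All 4 of its tested rows had fitted values above 0. The row ath-miR156a-5p did not overlap, at 648, 490 and 1273 CPM against 1507, 2176 and 1754 CPM (log2 fold change 1.17).

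The summed level of miR2950 was lower in February without passing the threshold. It stood at 32260, 33874 and 8828 CPM in September and 14120, 11458 and 1187 CPM in February. All 3 pairs were lower, though September 3 lay below February 1 and 2, and the log2 fold change was -1.49 without and -1.91 (SE 0.45, edgeR adjusted p = 0.054) with the block. Of its names vvi-miR2950-5p passed with the block, at 14752, 13103 and 3257 CPM against 4655, 3341 and 257 CPM (log2 fold change -2.42, SE 0.55, edgeR adjusted p = 0.034). Without the block its value was -1.91 (SE 1.17, edgeR adjusted p = 0.91).

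The family miR11534 was represented by the spruce name pab-miR11534. It stood at 11723, 11006 and 11449 CPM in September and 3595, 4946 and 2575 CPM in February. The September libraries were nearly equal on the TMM scale, though less so as plain shares of all counts (0.882%, 1.45% and 0.985%). The months did not overlap. Yet the log2 fold change of -1.62 (SE 0.54) missed the threshold among families (edgeR adjusted p = 0.16 without and 0.054 with the block).

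Of the 19 predicted names, 13 were tested, 8 with fitted values above 0 and 5 below. The name novel_15 stood at 95.4, 86.2 and 153 CPM in September and 879, 718 and 484 CPM in February, with November between them at 221, 177 and 294 CPM. Its months did not overlap. With the block, edgeR gave a log2 fold change of 2.68 (SE 0.65, adjusted p = 0.034), beside 2.64 (SE 0.70, adjusted p = 0.31) for month alone. As a family of its own it was not called. The name novel_6 had 1997, 748 and 389 CPM in September and 11024, 4163 and 227 CPM in February, higher in libraries 1 and 2 and lower in library 3. The name novel_3 had 4566, 11516 and 4822 CPM in September against 1893, 2744 and 5005 CPM in February, with the opposite directions. Neither passed the test with or without the block. The other predicted names chosen by size of change were novel_28 (log2 fold change 2.04), which was sparse, and novel_24 (-1.04) and novel_10 (-0.54), none of them called.

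Most calls of single names were lost when a library was left out, with folds of the same direction. In the 9 blocked fits that left out 1 library, ppt-miR319a was called in 3, and vvi-miR2950-5p, gma-miR319c, gma-miR319q and novel_15 in 2 each. These were the fits without November 3 or February 3, and for ppt-miR319a also that without November 2. The highest adjusted p in the others was 0.324 for ppt-miR319a and novel_15, 0.424 for vvi-miR2950-5p and 0.575 for the gma-miR319 names. The log2 fold changes in these 9 fits ran from -3.13 to -2.48 for ppt-miR319a, -2.71 to -1.97 for vvi-miR2950-5p, 2.54 to 3.10 for novel_15 and -2.25 to -1.14 for the gma-miR319 names.

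Most listed counts of both months belonged to miR159 and miR166. Both families hold groups of names with near-identical counts, which may list the same reads more than once. Their shares, within-family shares and tallies of rows include each of these names. The miR159 family, regulators of MYB factors in the gibberellin response of seeds and anthers, held 47.7%, 47.4% and 46.3% of counts in September and 34.1%, 38.1% and 41.6% in February. These plain shares did not overlap, yet with TMM factors the months did, and the log2 fold change was -0.48 (edgeR adjusted p = 0.63). Of its 19 tested rows 18 had a fitted value below 0 (16 with upper quartile factors). Its leading name pta-miR159a held 67.1%, 58.8% and 26.1% of the family in September and 63.9%, 61.3% and 22.5% in February, so that library 3 was again the one apart. In level pta-miR159a stood at 425589, 211041 and 140412 CPM in September and 262067, 257377 and 60641 CPM in February. The 3 next names of the family, sof-miR159c, pta-miR159c and mdm-miR159a, had log2 fold changes of -0.37, -0.55 and -0.54, and that of pta-miR159a was -0.42, none of them called.

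The miR166 family held 32.5%, 18.3% and 31.4% of counts in September and 52.6%, 49.2% and 29.3% in February. On the TMM scale it stood at 431770, 138859 and 365067 CPM in September and 632610, 541990 and 189266 CPM in February. Libraries 1 and 2 were higher in February and library 3 was lower, and the log2 fold change of 0.54 did not pass the test (edgeR adjusted p = 0.70). Its most abundant name was gma-miR166u, at 86006, 27577 and 65979 CPM in September and 126195, 108397 and 34606 CPM in February. Of its 20 tested rows 12 had values above 0 and 8 below (14 and 6 when scaled by total counts), and the 2 rows named for the 5p arm, ath-miR166a-5p and osa-miR166d-5p, were lower in all 3 pairs (log2 fold change -0.96 and -1.02). The related miR165 had a log2 fold change of -1.22, which turned to 0.47 without the libraries numbered 3.

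The miR396 family was lower in February in all 3 pairs and did not overlap, at 21126, 18550 and 31380 CPM against 18464, 13530 and 8479 CPM. Its log2 fold change of -0.81 did not pass the test (edgeR adjusted p = 0.50 without and 0.30 with the block). Of 14 tested rows 11 had values below 0 (9 with upper quartile factors and 8 when scaled by total counts), among them ath-miR396b-5p, at 7435, 7320 and 12715 CPM against 5334, 3859 and 2714 CPM (log2 fold change -1.21). The row shared by ath-miR396a-5p, gma-miR396h and zma-miR396g-3p also had no overlap, at 452, 421 and 994 CPM against 270, 224 and 388 CPM (log2 fold change -1.08).

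No family passed the test in the remaining lists of conserved families, which were chosen by known targets. In the auxin pathway, 3 families were tested, with log2 fold changes of 0.30 for miR160, 0.25 for miR167 and -0.74 for miR390. For meristem, boundary and phase genes, 3 were tested, with 0.59 for miR164, -1.03 for miR171 and -0.52 for miR394. The miR171 sum was higher in February in libraries 1 and 2 and lower in library 3 (log2 ratios 0.16, 0.48 and -3.13). Its 1 tested row had a fitted value above 0. In September 3 the untested rows ptc-miR171c and sly-miR171d, nearly alike in counts, held 58 and 57 of the family's 144 counts. The families that act on the miRNA machinery itself, miR162 on Dicer-like and miR168 on Argonaute messages, had -0.16 and -0.34. Median log2 fold changes of these lists were 0.25, -0.52 and -0.25, beside 0.30 over all 47 families. The copper-protein list had 3 of its 4 families in the table and 0 tested, and of the sulfate and phosphate list only miR399 was tested (-0.39). miR858, a regulator of MYB factors of phenolic metabolism, had 0.66. miR482, which acts on resistance genes, did not overlap between months but was sparse, at 33.7, 20.7 and 52.5 CPM in September and 19.3, 17.7 and 0 CPM in February (log2 fold change -1.47, edgeR adjusted p = 0.50).

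Of a list of families known from conifers, ferns and mosses, 4 were tested and 0 called. Their fitted values were above 0 for 3 and below 0 for 1, with a median log2 fold change of 2.46, beside 27 of 47 above 0 and a median of 0.30 over all families. The list does not hold miR2950 and miR11534, also catalogued in spruce, whose values were below 0. miR1083 stood at 1329, 569 and 2365 CPM in September and 2540, 3942 and 17613 CPM in February. Its months did not overlap, yet its log2 fold change of 2.50 (SE 1.34) had an edgeR adjusted p of 0.50 without and 0.15 with the block. Without February 3 the unblocked value was 1.19, and over the 9 unblocked fits that left out 1 library it ran up to 3.28. miR536 was sparser, at 25.2, 48.3 and 0 CPM against 162, 191 and 34.9 CPM, higher in all 3 pairs (log2 fold change 2.43). miR1314 went the other way in all 3 pairs (log2 fold change -0.58), and the fourth family was miR529.

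A last group comprised 7 families whose standing as miRNAs has been doubted in the field, because their sequences match fragments of longer RNAs or have no clear hairpin. All 7 were tested and 0 were called, with a median log2 fold change of 2.22. All had fitted values above 0, although miR6478, at 0.05, was below 0 with RLE or upper quartile factors. The summed share of counts was 0.942%, 2.21% and 0.182% in September and 0.491%, 1.27% and 12.4% in February, and 0.447%, 6.34% and 0.175% in November. The highest shares were in February 3 and November 2, the libraries with the fewest counts. The lowest were in September 3 and November 3, while November 1, with the most counts, held 0.447%. A share has the library total as its denominator, and the part of depth or RNA quality in it was not tested. The name ppt-miR894 stood at 1153, 2262 and 997 CPM in September and 2376, 1955 and 52402 CPM in February. The name ptc-miR6478 stood at 10702, 11489 and 817 CPM in September and 1951, 1893 and 20000 CPM in February. Without the libraries numbered 3 the log2 fold change of the miR6478 family was -2.53. miR6300 and miR8175 also turned, from 0.88 and 4.85 to -1.97 and -0.50.

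Names of miR1511, miR8155 and miR5139, all in this group, held nearly the same counts in every library, so the 3 families are not separate observations. The row ppe-miR1511-3p stood at 129, 700 and 55.8 CPM in September and 377, 2517 and 1218 CPM in February. It was higher in all 3 pairs, with a log2 fold change of 2.22 without the block and 2.92 (edgeR adjusted p = 0.073) with it.

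**Figure D5:**
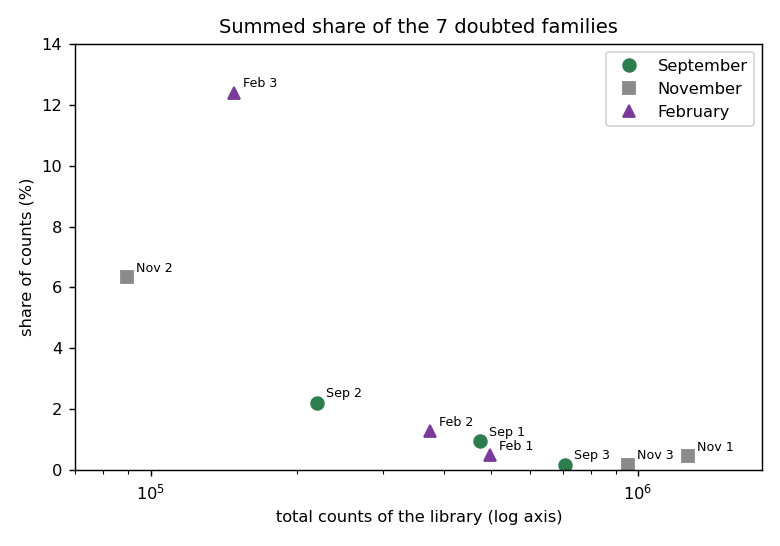
Summed share of counts (%) of the 7 doubted families against the total counts of each of the 9 libraries (log axis), with colours for the months. The highest shares, 12.4% and 6.34%, belonged to February 3 and November 2, the libraries of lowest total.

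The 120 rows that did not reach the minimum held 0.0224% to 0.131% of a library's counts. Of these 99 had fewer than 10 counts in each of the 6 libraries, and the highest single count was 58, for ptc-miR171c in September 3. A total of 22 were at 0 in all September libraries, 36 in all February libraries and 8 in all 6. The main fits did not test these rows singly, and no difference between months is reported for any of them as a row. Their counts did enter the sums of their families.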

How the data were processed

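Values are the authors' deposited read counts under each miRNA name, unnormalized, as the columns' headers state. Tools listed in the submitters' processing notes, with no roles, are Bowtie, HTSeq 0.6.1, TopHat2 2.0.12 and CASAVA 1.8. How reads were assigned to names is not given in the sources used here. The mRNA table was not used here.

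Library sizes were sums over distinct rows. Rows of the same miR number were summed into families, and each predicted name was a family. Of the 132 tested rows, 38 fell in 14 groups of near-identical rows, linked by counts within 5% or 3 counts in every library. Each of them entered the library sizes, family sums and shares. edgeR 4.0.16 in R 4.3.3 fitted a quasi-likelihood model of month to all 9 libraries with TMM factors. Benjamini-Hochberg adjustment ran over 132 rows or 47 families with a threshold of 0.05. SE is the absolute log2 fold change divided by the square root of the test's F statistic. A second fit added the library number as a block. All 9 same-number correlations of deviations from month means exceeded 0.1 (0.367 to 0.893), so the numbers were treated as pairing the libraries, from these values and not from a label. February 2 correlated more with September 1 (0.768) than with September 2 (0.411). DESeq2 1.42.0 was an alternative. The fits were tested on simulated data with a common spread and no difference between library numbers. That check does not cover gaps such as those of library 3.

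Named rows were those called in either fit, the 5 most abundant, up to 8 per direction by fold change with no overlap and at least 100 CPM, and up to 3 predicted names per direction. Other names (bdi-miR159a-3p, osa-miR166m, ath-miR319c, mdm-miR319d, pab-miR2950a, the miR166 5p rows and the names of doubted families) were chosen after their values were seen. The members and lists were chosen with earlier results of these data known.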

Additional observations from a re-analysis of the deposited data

How the results depend on the processing

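Results were recomputed with other scaling, filters, tools, row definitions and sets of libraries, some of them chosen after seeing the data (RLE and upper quartile factors with the block, every name kept with the block, near-identical rows merged, the row with most counts per family with the block, predicted names left out of families, and November 2 and February 3 left out). The replicate block moved the calls of names from 0 to 5 and changed no call of a family, with miR319 called in both fits.

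Names called with the block numbered 20 with DESeq2 (5 with DESeq2 and no block), 11 with only September and February, 16 with no filter on low counts, 23 without the libraries numbered 3, 5 with RLE factors, 1 with upper quartile factors, 5 with every name kept, 11 without November 2 and February 3, 1 with near-identical rows merged and 0 with total counts only. Leaving out 1 library gave 0 to 14 names with the block and 0 in all 9 fits without it. The other settings without the block called 0.

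Families called without the block numbered 0 with upper quartile factors, with total counts only, with no filter, with only September and February, with every name kept, without the libraries numbered 3, with the row of most counts per family, without November 2 and February 3, and with near-identical rows merged, and 3 with DESeq2. With the block the count was 0 with only September and February, with total counts, with no filter or with upper quartile factors, and 12 with DESeq2, 3 without the libraries numbered 3, 4 with RLE factors, 4 with every name kept, 5 without November 2 and February 3, and 3 with predicted names left out or near-identical rows merged. Leaving out 1 library gave 0 to 2 families without the block and 0 to 3 with it. miR319 had a negative log2 fold change in every one of these fits. It was called in 3 of 12 alternatives without the block (RLE factors, DESeq2 and predicted names left out), with adjusted p-values of up to 0.172, and in 8 of 12 with it.

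No result whose direction turned was called by edgeR without the block, and the cause was not tested. Without November 2 and February 3, pta-miR159a moved to 0.0039 and miR167 to -0.36, and miR162 to 0.34 (0.056 with the block). With the block and without those libraries miR165 moved to 0.17 and miR171 to 0.23. Without the libraries numbered 3, miR165 moved to 0.47 (0.47 with the block), miR171 to 0.34 (0.31), miR162 to 0.026 (0.036) and, with the block, sof-miR159c to 0.0037. Merging near-identical rows gave 0.15 for sof-miR159c (0.16 with the block), 0.23 for miR162 (0.057), 0.14 for miR168 (0.14), 0.072 for miR1314 and, with the block, 0.038 for miR165, 0.25 for miR399 and 0.45 for novel_10. With the block novel_10 was 0.035 with DESeq2, 0.19 with total counts, 0.29 with no filter, 0.037 with RLE and 0.072 with upper quartile factors, and miR399 was 0.079 with total counts and 0.14 with no filter. With no filter miR162 was 0.025 and miR168 0.0007. The row with most counts gave 0.11 for miR171 (0.13 with the block).

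Among the doubted families, miR6300 turned to -0.55 with the block and only September and February, -1.97 without the libraries numbered 3 (-1.97 with the block) and -1.65 without November 2 and February 3 (-1.76). miR6478 turned to -0.22 with RLE factors, -0.42 with upper quartile factors, -0.22 with DESeq2, -1.02 with the block and only September and February, -2.53 without the libraries numbered 3 (-2.52 with the block, edgeR adjusted p = 0.028) and -1.996 without November 2 and February 3 (-2.37). miR8175 turned to -0.50 without the libraries numbered 3 (-0.38) and -0.33 without November 2 and February 3 (-0.17).

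Over the fits that left out 1 library, log2 fold changes ran from -0.72 to 0.19 for pta-miR159a, -0.42 to 0.31 for sof-miR159c, -0.65 to 0.13 for pta-miR159c, -0.59 to 0.12 for mdm-miR159a, -4.49 to 0.58 for gma-miR319c and gma-miR319q, and -1.04 to 1.06 for novel_10. Among families they ran from -0.50 to 0.084 for miR159, -1.77 to 1.02 for miR165, -0.36 to 0.79 for miR167, -1.03 to 0.14 for miR171, -0.92 to 0.13 for miR390, -1.40 to 0.19 for miR394, -1.47 to 1.04 for miR399, -0.77 to 0.34 for miR162, -0.54 to 0.38 for miR168, -1.82 to 0.82 for miR1314, -2.02 to 2.32 for miR6300, -2.42 to 3.31 for miR6478 and -0.74 to 6.09 for miR8175.

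Relative to TMM factors, the median log2 fold change over all rows shifted by 0.15 with upper quartile factors and 0.22 with total counts. February 3 and November 2 held the fewest counts, and 3 counts in February 3 correspond to 13.1 CPM with TMM factors. Plain shares of miR159, miR166 and miR319 moved by less than 1 SD when every name was kept.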
